A study of Mus musculus with 6 samples.

Results

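Immunoglobulin genes were read out in RNA of whole mouse kidneys damaged by ischaemia-reperfusion, in which the blood supply of the organ is clamped and then released. The genes taken were all those whose deposited biotype marks them as an immunoglobulin segment and not a pseudogene, together with the partner genes Jchain, Mzb1, Cd79a and Cd79b. These rules gave 48 of the 25805 listed genes, 44 segments and 4 partners. The segments were 18 IGHV, 13 IGKV and 1 IGLV variable (V) genes, 6 heavy, 1 kappa and 3 lambda constant genes, and 1 heavy and 1 kappa joining gene. The GENCODE M21 annotation of the mouse genome holds 268 such segments, and the deposited table lists no gene with fewer than 2 reads over its 6 libraries.

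Kidneys labelled CXCR2 knockout and given IRI (ischaemia-reperfusion injury) gave 3 libraries, and WT (wild-type) kidneys given IRI gave the other 3. All 6 kidneys were thus injured, and uninjured tissue was not analysed here. The labels give neither the strain, age and sex of the mice, nor the time after injury, nor how the knockout was made, nor whether the libraries came from separate animals, so p-values measure the spread between these libraries. The aim stated for the series was to compare gene expression between these genotypes.

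The targeted gene did not separate the groups. Cxcr2 had 98.0, 36.8 and 56.6 normalized counts in knockout-labelled libraries 1 to 3, against 15.9, 88.8 and 56.9 in wild-type libraries 1 to 3. The ranges overlapped, and the log2 fold change of 0.43 (SE 0.64) had a limma adjusted p of 0.841. The 3 libraries are therefore called labelled knockout below. Libraries held 15518083 to 20356601 reads, and a normalized count is a read count divided by 1 size factor for its library. Kidney tubule markers summed to 58549 to 197589 normalized counts in libraries labelled knockout and 93203 to 125156 in wild-type libraries. Labelled-knockout library 1 stood apart in summed fat cell markers (63316 normalized counts, against 749 to 3868 in the other 5 libraries), erythrocyte markers (13556, against 778 to 2991) and neutrophil markers (4053, against 348 to 1164). Labelled-knockout library 3 stood apart in interferon-stimulated genes, with 15920 normalized counts against 1712 to 3694 in the other 5. Above 0 in log2 fold change were 10 of 10 fat cell, 5 of 8 erythrocyte, 7 of 9 neutrophil and 9 of 10 interferon-stimulated genes tested, with 0 called by limma. Of all genes, 50.1% were below 0. The 3 libraries labelled knockout did not share these directions. Against the wild-type mean, their median log2 differences were 7.57, 3.27 and -2.23 for fat cell genes and 2.75, -0.51 and -0.66 for erythrocyte genes. They were 2.86, -0.37 and 0.55 for neutrophil genes and -0.61, 0.75 and 2.93 for interferon-stimulated genes.

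An antibody is built from heavy and light chains, and each B cell joins a V segment to a joining segment, and in the heavy chain also to a diversity segment, upstream of a constant gene. The heavy constant gene sets the class: B cells begin with IgM (Ighm) and IgD (Ighd) and can switch to IgG or IgA (Igha). Membrane immunoglobulin signals through Cd79a and Cd79b, while secreted IgM and IgA are joined into polymers with the J chain (Jchain), and Mzb1 is a chaperone of the endoplasmic reticulum in antibody-producing cells. In bulk tissue, fewer cells of a type and less RNA per cell cannot be told apart.

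The tail that IgA and IgM use to bind the J chain is shown because Igha and Jchain had the smallest p-values among these genes and IgM took the largest part of the reads where IgA was low. The last 54 coding bases of each secreted form are given 5′ to 3′ from GENCODE M21 transcripts (GRCm38), and capitals mark the codon of the cysteine that bonds to the J chain. They lie on the minus strand at chr12:113258771-113258824 for Igha and chr12:113420870-113420923 for Ighm.
Igha: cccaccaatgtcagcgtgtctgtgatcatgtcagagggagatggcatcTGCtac
Ighm: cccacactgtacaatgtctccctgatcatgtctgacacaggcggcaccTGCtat
The 2 tails share 35 of 54 bases, and the cysteine codon stands at the same place in both. In a search with its whole transcripts, the nearest annotated copy of Igha was Gm44573. It aligned over 277 bases only, of which it shared 71.8%, beside a deposited Igha length of 2668 bases.

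Immunoglobulin transcripts were scarce in all 6 injured kidneys. The 44 segments together took 87, 166 and 62 reads in libraries 1 to 3 labelled knockout, against 272, 166 and 85 reads in the wild-type libraries. Exact Poisson 95% intervals, which cover counting error only here and below, were 69.7 to 107 reads, 142 to 193 reads and 47.5 to 79.5 reads in the libraries labelled knockout. In the wild-type libraries they were 241 to 306 reads, 142 to 193 reads and 67.9 to 105 reads. In CPM, reads scaled to a common library total, the segments took 5.01, 9.50 and 3.46 in libraries labelled knockout and 13.4, 9.30 and 5.48 in wild-type libraries. Wild-type library 1 was the highest and labelled-knockout library 3 the lowest, but the groups overlapped. Summed normalized counts averaged 107 ± 49.3 in libraries labelled knockout and 159 ± 65.5 in wild-type libraries (SD, n = 3 each), a log2 ratio of -0.57.

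Of the 288 values of the 48 genes in 6 libraries, 172 were 0. Reads were found in all 6 libraries for 6 genes, of which only Ighm and Igkc were segments. A mean of at least 1 normalized count over the 6 libraries was reached by 20 genes, which entered the test, and 28 genes did not enter it. No read was found in any library labelled knockout for 23 genes, and in any wild-type library for 5 genes. Among all 25805 listed genes the shares with no read were 5.46% in the libraries labelled knockout and 5.20% in the wild-type libraries. Those shares cover genes of every level and are not a like background. Of the 32 V genes, 20 had 2 reads in all, the fewest of any listed gene. A gene with 2 reads can have them in 2 libraries at most, so 0 reads in a group says little about it.

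**Figure D1:**
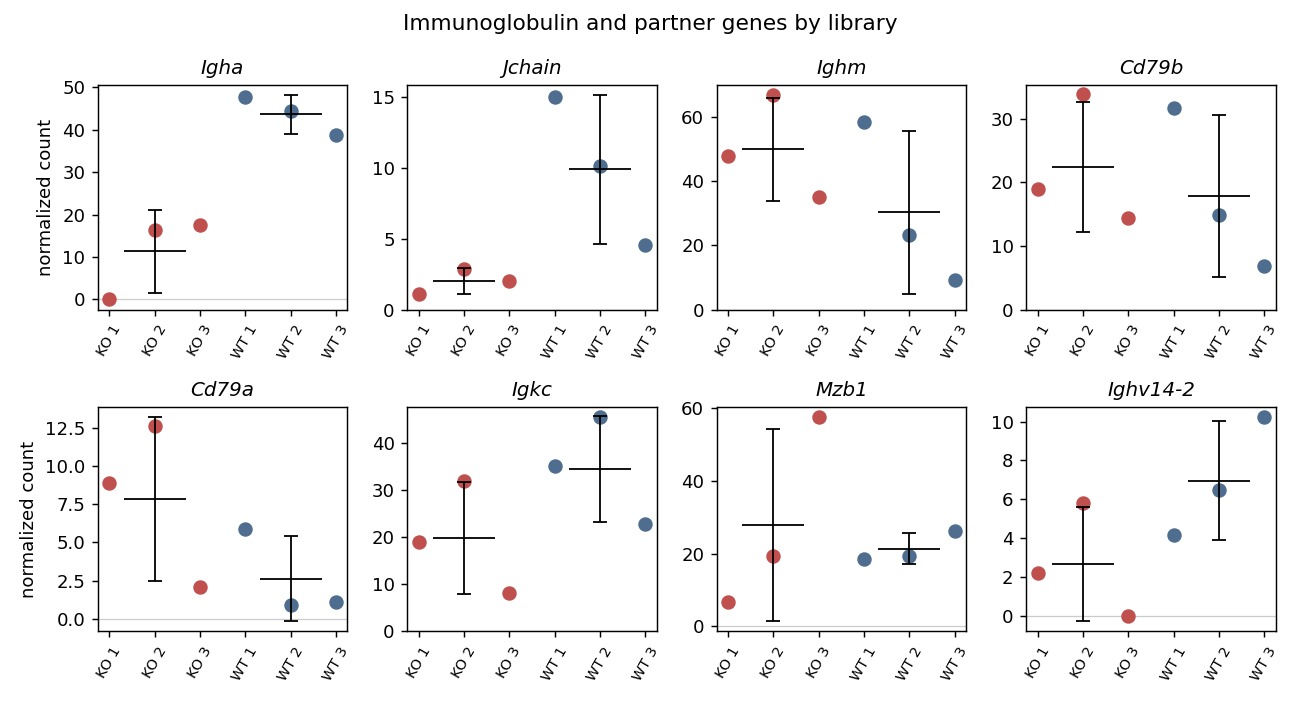
Normalized counts of constant genes, partner genes and Ighv14-2 in each library, with 1 panel per gene; points are the 3 libraries labelled knockout (KO, red, left) and the 3 wild-type libraries (WT, blue, right), and bars show the mean and SD. Igha and Jchain are lower in every library labelled knockout than in any wild-type library, while the other 6 genes overlap between the groups.

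No immunoglobulin or partner gene passed the test between genotypes. By limma with Benjamini-Hochberg adjustment over all 21721 genes tested, 0 of the 20 tested members had an adjusted p under 0.05, beside 0.0046% of all genes, and members' adjusted p ran from 0.435 to 0.996. At an unadjusted p under 0.05, 2 members were lower in the libraries labelled knockout and 0 were higher, beside 6.14% and 3.94% of all genes, or 10.1% in either direction. The same 2 genes, Igha and Jchain, had groups that did not overlap, beside 9.43% of all genes that were lower without overlap and 8.27% that were higher, so the members' count of 2 in 20 was near the background. On recovered reads, edgeR tested 5 members and called 0, beside 0.00628% of all genes called. None of the 5 had an unadjusted edgeR p under 0.05, which 1864 of 15915 genes had. DESeq2 gave the same 5 members an adjusted p and called 0, beside 1.95% of all genes called, and 1.3% called as lower. It gave all 48 members an unadjusted p, which was under 0.05 for Igha (0.0172) and Jchain (0.0372). Of the 25805 listed genes, 2195 had an unadjusted DESeq2 p under 0.05. Jchain had no adjusted p by DESeq2.

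Across the 20 tested members, 14 had a log2 fold change below 0, beside 50.1% of all genes, and 6 above 0. Their median was -0.35, against -0.001 over all genes. Ighg1 and Iglc1 had no read in any library labelled knockout, and their fitted fold changes depend on the pseudocount. Without them the median of the other 18 was -0.28.

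**Figure D2:**
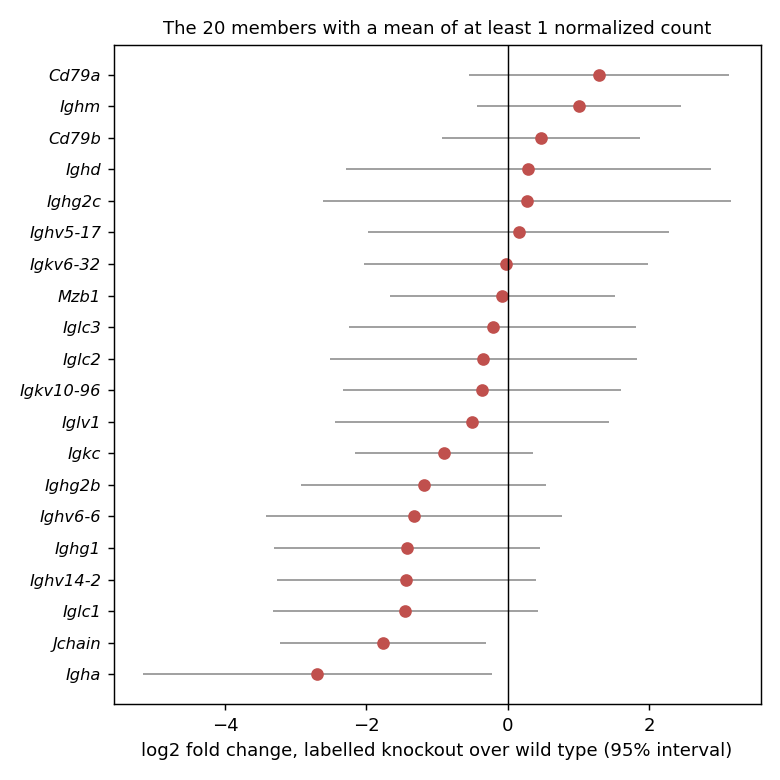
Log2 fold change, labelled knockout over wild type, of the 20 members with a mean of at least 1 normalized count, on the log2(normalized count + 1) scale; points are limma estimates and lines their 95% intervals, from 3 libraries per group. The intervals of Igha and Jchain lie below 0 before adjustment, and the other 18 span it.

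IgA transcripts were fewer in each library labelled knockout than in each wild-type library. Igha (chromosome 12, 113254830 to 113260236, minus strand, mm10) had 0, 17 and 17 reads in libraries 1 to 3 labelled knockout, against 57, 48 and 34 reads in the wild-type libraries. Labelled-knockout library 1 had none, which at 3 reads for a count of 0 allows up to 3.34 normalized counts, and the lowest wild-type library had 34 reads. Normalized counts averaged 11.3 ± 9.82 in libraries labelled knockout and 43.6 ± 4.54 in wild-type libraries (SD, n = 3 each), 3.85-fold lower. The log2 fold change was -2.69 (SE 1.07, 95% interval -5.16 to -0.23), with an unadjusted limma p of 0.0360 and an adjusted p of 0.467. Without labelled-knockout library 1, the library high in fat, blood and neutrophil markers, the log2 fold change was -1.31 with a limma adjusted p of 0.242. Leaving out labelled-knockout library 2 gave -3.37, and leaving out labelled-knockout library 3 gave -3.41. The other 2 libraries labelled knockout were also below every wild-type library, at 16.5 and 17.5 normalized counts against 38.7 to 47.6. Summed T and NK cell markers ran from 78.2 to 121 normalized counts in libraries labelled knockout and from 54.6 to 77.7 in wild-type libraries. The single genes of that list did not share a direction. Of the 11 tested, 6 were below and 5 above 0 in log2 fold change, with a median of -0.07. The part of those other cell types in the Igha counts was not tested.

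The J chain, which joins IgA and IgM into polymers, ran the same way at far fewer reads. Jchain (chromosome 5, 88519809 to 88527891, minus strand) had 1, 3 and 2 reads in libraries labelled knockout, against 18, 11 and 4 reads in wild-type libraries. The groups did not overlap, but the nearest libraries were 1 read apart. Means were 2.03 ± 0.896 normalized counts in libraries labelled knockout and 9.92 ± 5.25 in wild-type libraries (SD, n = 3 each), 4.90-fold lower. The log2 fold change was -1.77 (SE 0.64, 95% interval -3.22 to -0.31), with an unadjusted limma p of 0.0226 and an adjusted p of 0.435.

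IgM transcripts did not follow IgA. Ighm (chromosome 12, 113418558 to 113422730, minus strand) had 43, 69 and 34 reads in libraries labelled knockout, against 70, 25 and 8 reads in wild-type libraries. Wild-type library 1 stood with the libraries labelled knockout, and wild-type library 3 was lowest. Normalized counts averaged 49.9 ± 16.0 in libraries labelled knockout and 30.2 ± 25.5 in wild-type libraries (SD, n = 3 each). Limma put the difference at 1.01 on the log2 scale (SE 0.63, 95% interval -0.43 to 2.45) with an adjusted p of 0.606, and at 0.38 without wild-type library 3 and 1.66 without wild-type library 1. Ighd, the other class of naive B cells, had 6, 5 and 0 reads in libraries labelled knockout, against 14, 1 and 0 reads in wild-type libraries.

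IgG transcripts were close to the detection limit. Ighg1 had 0 reads in all 3 libraries labelled knockout, against 5, 3 and 0 reads in wild-type libraries. Ighg2b had 1, 2 and 0 reads in libraries labelled knockout, against 2, 8 and 2 reads in wild-type libraries. For Ighg2c the libraries labelled knockout had 5, 10 and 0 reads, against 21, 0 and 1 reads in wild-type libraries. In these 3 genes most reads came from 1 or 2 libraries, and the groups overlapped. Ighg2b and Ighg2c share 87.7% of aligned bases, so their reads may be split between them in a way the sources used here do not give.

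Shares within a library do not depend on its scaling, and the heavy-chain classes took different shares of the heavy constant reads. Ighm held 78.2%, 67.0% and 66.7% of 55, 103 and 51 heavy constant reads in libraries labelled knockout, against 41.4%, 29.4% and 17.8% of 169, 85 and 45 reads in wild-type libraries. The shares averaged 70.6 ± 6.56% in libraries labelled knockout and 29.5 ± 11.8% in wild-type libraries (SD, n = 3 each), without overlap. Wilson 95% intervals of single libraries, which cover counting error only and not the spread between libraries, were 53.0% to 78.0% for the lowest share labelled knockout and 34.3% to 49.0% for the highest wild-type share. Igha held 0%, 16.5% and 33.3% in libraries labelled knockout, against 33.7%, 56.5% and 75.6% in wild-type libraries. The 0 of 55 reads allows a share of up to 5.45%. Labelled-knockout library 3 and wild-type library 1 nearly met, with intervals of 22.0% to 47.0% and 27.0% to 41.1%.

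Of the sum of Igha and Ighm reads, Igha made up 0%, 19.8% and 33.3% in libraries labelled knockout, against 44.9%, 65.8% and 81.0% in wild-type libraries. These shares averaged 17.7 ± 16.8% in libraries labelled knockout and 63.9 ± 18.1% in wild-type libraries (SD, n = 3 each), from 34 of 180 reads and 139 of 242 reads. The groups did not overlap. This ratio was not among the shares planned. It sets the heavy constant genes of lowest (Igha) and highest (Ighm) log2 fold change against each other. The Igha and Ighm shares above have the same denominator, so these lacks of overlap are not separate results. All shares are given as a description with no test. An exact two-sided permutation test of 3 against 3 libraries cannot go below p = 0.1. The 3 IgG genes together held 10.9%, 11.7% and 0% of heavy constant reads in libraries labelled knockout, against 16.6%, 12.9% and 6.67% in wild-type libraries, with overlap.

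**Figure D3:**
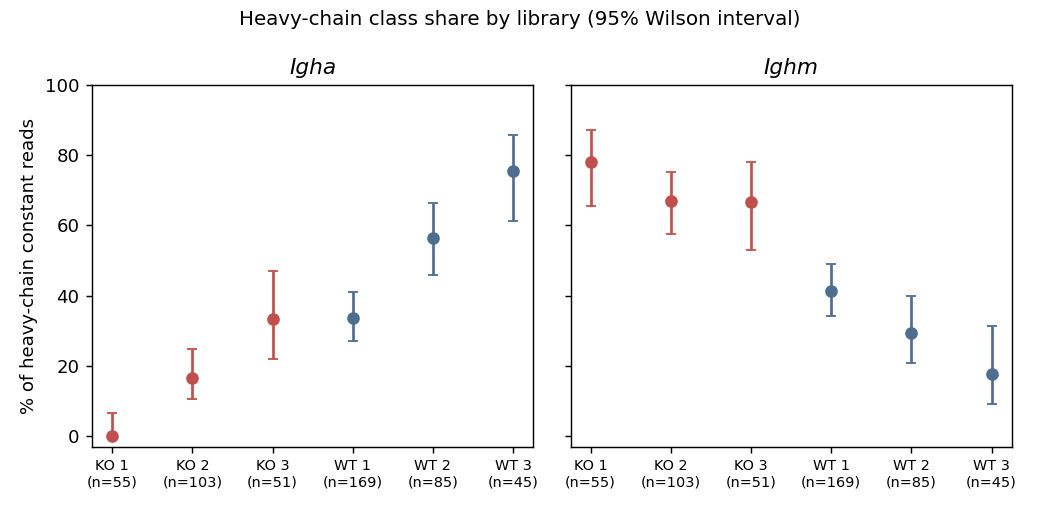
Percent of heavy constant reads held by Igha (left panel) and Ighm (right panel) in each library, labelled knockout (KO, red) left of wild type (WT, blue); points are libraries, bars are Wilson 95% intervals and n is the number of heavy constant reads. Ighm takes 66.7% to 78.2% in libraries labelled knockout and 17.8% to 41.4% in wild-type libraries, and Igha takes 0% to 33.3% in libraries labelled knockout and 33.7% to 75.6% in wild-type libraries.

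Kappa was the leading light chain. Igkc (chromosome 6, 70726435 to 70726966, plus strand), the only kappa constant gene, had 17, 33 and 8 reads in libraries labelled knockout, against 42, 49 and 20 reads in wild-type libraries. Labelled-knockout library 2 lay above wild-type library 3, so the groups overlapped. Means were 19.7 ± 11.9 normalized counts in libraries labelled knockout and 34.4 ± 11.3 in wild-type libraries (SD, n = 3 each), and limma gave an adjusted p of 0.601 for a log2 fold change of -0.90 (SE 0.55). A lincRNA, Gm30211, is annotated across Igkc on the same strand, so reads of both cannot be told apart by position.

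Lambda constant genes had reads in 3 libraries. Iglc1 had 0 reads in the libraries labelled knockout, against 4, 4 and 0 reads in wild-type libraries. Iglc2 had 2 reads in labelled-knockout library 2 and 6 in wild-type library 1, and Iglc3 had 4 in labelled-knockout library 2 and 2 in each of wild-type libraries 1 and 2. Lambda made up 0%, 15.4% and 0% of light constant reads in libraries labelled knockout, against 22.2%, 10.9% and 0% in wild-type libraries. Iglc2 and Iglc3 share 94.9% of 454 aligned bases, and Iglc1, Iglc3 and Iglv1 overlap an antisense gene, 2010309G21Rik, so their counts are uncertain. The 1 lambda V gene listed, Iglv1, had 0, 2 and 0 reads in libraries labelled knockout, against 4, 1 and 0 reads in wild-type libraries.

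Per kilobase of the deposited gene length, Igkc was the highest constant gene, at 37.0 ± 22.3 normalized counts per kilobase in libraries labelled knockout and 64.7 ± 21.3 in wild-type libraries (SD, n = 3 each). Ighm followed in libraries labelled knockout, with 26.5 ± 8.48 per kilobase there and 16.0 ± 13.5 in wild-type libraries. Igha had 4.24 ± 3.68 per kilobase in libraries labelled knockout and 16.3 ± 1.70 in wild-type libraries. In wild-type libraries Igha and Ighm did not differ beyond their spread on this scale.

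V genes were seen mostly as scattered single finds. All 32 V genes together had 15, 22 and 3 reads in libraries labelled knockout, against 49, 23 and 20 reads in wild-type libraries. In normalized counts labelled-knockout library 2 and wild-type library 2 were level, at 21.3 in each, and the groups overlapped there. Of the 32, 23 had reads in 1 library only, 8 in 2 to 4 libraries, 1 in 5 libraries and 0 in all 6. Reads came from libraries labelled knockout alone for 5 V genes, from wild-type libraries alone for 20 and from both for 7, and 12 of the 20 were found in wild-type library 1 and no other. Of all listed genes, at every read level, 5.20% had no read in wild-type libraries and 5.46% none in libraries labelled knockout. V reads totalled 40 in libraries labelled knockout and 92 in wild-type libraries. The split was not compared with that of other genes of like read count.

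Heavy V genes had 9, 14 and 3 reads in libraries labelled knockout, against 30, 15 and 16 reads in wild-type libraries, a log2 ratio of mean normalized counts of -1.10. The groups did not overlap, but labelled-knockout library 2 (14 reads, exact Poisson 95% interval 7.65 to 23.5) and wild-type library 2 (15 reads, 8.40 to 24.7) were within counting error of each other. Kappa V genes had 6, 6 and 0 reads in libraries labelled knockout, against 15, 7 and 4 reads in wild-type libraries.

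The number of V genes found grows with the number of V reads. Libraries labelled knockout held 5, 8 and 1 V genes with a read, against 20, 12 and 4 in wild-type libraries. At 15 V reads each, by exact hypergeometric rarefaction, 5.00 and 7.08 V genes would be found in labelled-knockout libraries 1 and 2, against 11.4, 9.36 and 3.89 in wild-type libraries 1, 2 and 3. Labelled-knockout library 3 had 3 V reads and cannot be set at that depth. At equal depth the groups overlapped, since wild-type library 3 was the lowest of the 5.

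Ighv14-2 was the V gene with the most reads and led in 4 of the 6 libraries. It had 2, 6 and 0 reads in libraries labelled knockout, against 5, 7 and 9 reads in wild-type libraries. Means were 2.68 ± 2.93 normalized counts in libraries labelled knockout and 6.96 ± 3.06 in wild-type libraries (SD, n = 3 each), with overlapping groups. Limma gave a log2 fold change of -1.44 and an SE of 0.81 (adjusted p = 0.574). The value was -0.69 without labelled-knockout library 3 and -2.08 without labelled-knockout library 2. The part of its sequence that codes for the mature V region is shown beside that of Ighv14-1, its near copy, to show how few bases separate V genes whose reads are counted apart. Both are 5′ to 3′ from GENCODE M21 transcripts, on the minus strand of GRCm38, at chr12:113994469-113994762 for Ighv14-2 and chr12:113931953-113932246 for Ighv14-1, with capitals at the bases that differ.
Ighv14-2: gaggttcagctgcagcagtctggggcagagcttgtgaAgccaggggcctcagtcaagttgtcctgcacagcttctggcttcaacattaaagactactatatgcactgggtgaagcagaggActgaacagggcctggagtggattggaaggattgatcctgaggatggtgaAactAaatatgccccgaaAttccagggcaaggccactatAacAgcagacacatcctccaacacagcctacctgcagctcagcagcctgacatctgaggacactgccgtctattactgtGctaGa
Ighv14-1: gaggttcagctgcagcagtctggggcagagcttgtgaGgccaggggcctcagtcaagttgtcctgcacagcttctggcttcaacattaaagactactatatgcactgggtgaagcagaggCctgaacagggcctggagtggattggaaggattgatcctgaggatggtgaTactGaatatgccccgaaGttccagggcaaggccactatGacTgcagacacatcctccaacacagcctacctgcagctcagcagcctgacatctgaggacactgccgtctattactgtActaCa
The pair differs at 9 of 294 bases (96.9% identity). Ighv14-1 had 0 reads in libraries labelled knockout, against 1, 1 and 0 reads in wild-type libraries. Across the 32 V genes the nearest annotated copy had 84.8% to 98.4% of aligned bases in common, with a median of 94.3%, and 14 had a copy of at least 95%.

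The other leading V genes had few reads, spread unevenly over the libraries. Ighv6-4 led labelled-knockout library 1 with 5 reads, and no other library had any. Ighv6-3 had 0, 1 and 3 reads in libraries labelled knockout, where it held all 3 V reads of library 3, against 0, 1 and 0 reads in wild-type libraries. Ighv6-6 had 0, 1 and 0 reads in libraries labelled knockout, against 3, 0 and 7 reads in wild-type libraries. Ighv5-17 had 0, 4 and 0 reads in libraries labelled knockout, against 3, 0 and 0 reads in wild-type libraries. Among kappa V genes, Igkv10-96 had 4, 0 and 0 reads in libraries labelled knockout, against 1, 1 and 2 reads in wild-type libraries. Igkv6-32 had 0, 4 and 0 reads in libraries labelled knockout, against 2, 1 and 0 reads in wild-type libraries. Igkv10-94 had 3 reads in wild-type library 1 and Igkv3-1 had 2 in wild-type library 3, with none elsewhere. The heavy joining gene Ighj1 had 2 reads, both in wild-type library 2. The kappa joining gene Igkj3 had 2 reads in labelled-knockout library 2 and 1 in wild-type library 2. Of all 32 V genes, 20 had 2 reads over the 6 libraries together, the fewest of any listed gene.

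**Figure D4:**
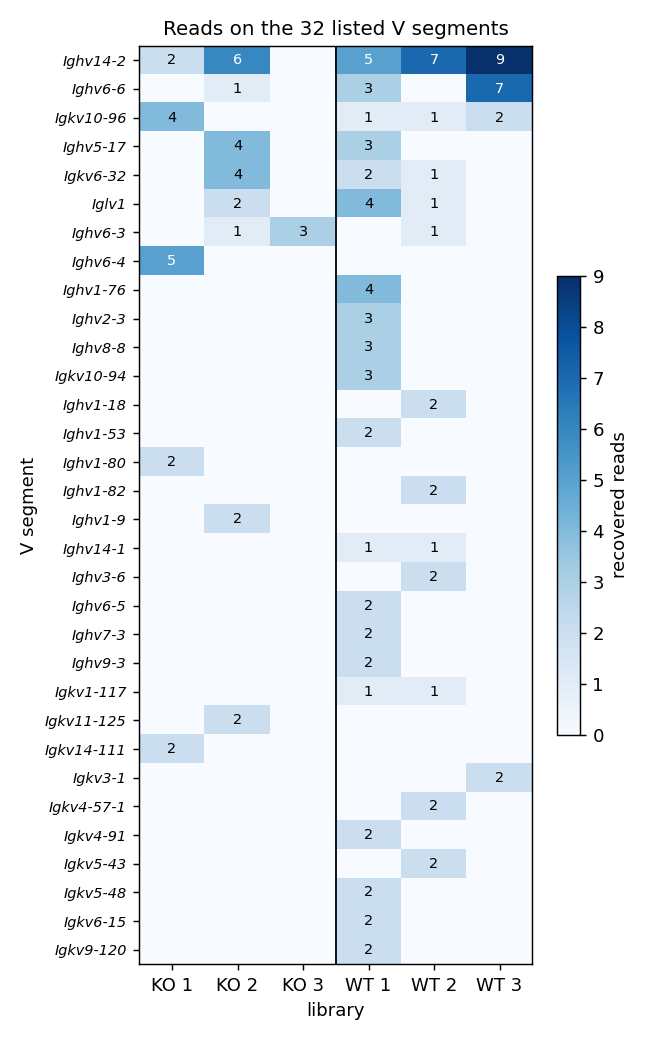
Recovered reads of the 32 V genes (rows) in each library (columns), with the 3 libraries labelled knockout left of the line (KO) and the 3 wild-type libraries right of it (WT); darker cells hold more reads and empty cells hold 0. Wild-type library 1 has the most V reads (49) and V genes (20), and labelled-knockout library 3 the fewest (3 reads from 1 V gene).

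The signalling partners of membrane immunoglobulin did not differ past the test. Cd79b (chromosome 11, 106311341 to 106314762, minus strand) had 18.9, 33.9 and 14.4 normalized counts in libraries labelled knockout, against 31.8, 14.8 and 6.83 in wild-type libraries. Limma gave 0.47 on the log2 scale with an SE of 0.62 (adjusted p = 0.819), and -0.046 without wild-type library 3. Cd79a (chromosome 7, 24897381 to 24902197, plus strand) had 8, 13 and 2 reads in libraries labelled knockout, against 7, 1 and 1 reads in wild-type libraries, and limma gave 1.29 on the log2 scale with an SE of 0.81 (adjusted p = 0.607). That value was 1.93 without labelled-knockout library 3 and 1.87 without wild-type library 1, and ran down to 0.86 without labelled-knockout library 2. A processed pseudogene, Gm32220, matches Cd79a over 298 bases at 98.7%, and Cd79a counts are uncertain to that extent. Gm32220 itself had 0, 2 and 0 reads in libraries labelled knockout, against 0, 0 and 3 reads in wild-type libraries. From high to low, Ighm and Cd79b gave the same first 3 libraries, labelled-knockout library 2, wild-type library 1 and labelled-knockout library 1, whereas Igha and Jchain gave wild-type libraries 1, 2 and 3 first. Other genes ranked in the same way had neither order. Igkc began with wild-type libraries 2 and 1, Cd79a with labelled-knockout libraries 2 and 1, and Mzb1 with labelled-knockout library 3 and wild-type library 3.

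Mzb1 (chromosome 18, 35647266 to 35649367, minus strand) had 6.68, 19.4 and 57.6 normalized counts in libraries labelled knockout, against 18.4, 19.4 and 26.2 in wild-type libraries. Labelled-knockout library 3, the library high in interferon-stimulated genes, was the highest and labelled-knockout library 1 the lowest, and a part of interferon-stimulated transcription in this value was not tested. Limma gave -0.08 on the log2 scale with an SE of 0.70 (adjusted p = 0.978). Without labelled-knockout library 1 it was 0.65, without labelled-knockout library 3 it was -0.82, and without wild-type library 3 it was 0.07. In GENCODE M21 an entry named SPATA24, which the deposited table does not list, overlaps Mzb1 on the same strand. It matches Mzb1 over 696 aligned bases at 100%, and Mzb1 counts are uncertain to that extent. The listed gene Spata24 is a separate neighbour (35656690 to 35662186) that does not overlap Mzb1. Spata24 had 72.4, 129 and 113 normalized counts in libraries labelled knockout, against 140, 170 and 123 in wild-type libraries.

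The genes that define B cells were also scarce. Of 20 B cell genes, all tested by limma, limma called 0 and 0 had an unadjusted limma p under 0.05. DESeq2 gave only 4 of them an adjusted p and called 0. Over all genes, limma called 0.0046% and DESeq2 1.95%. Of these 20, 8 were below and 12 above 0 in log2 fold change, and the median was 0.11. Their summed level was 1023 to 1964 normalized counts in libraries labelled knockout and 1049 to 1194 in wild-type libraries, and the list includes Ebf1, Blnk, Ralgps2 and Cd37, which other cells also express. The defining markers were near 0. Ms4a1 (CD20) had 0, 1 and 5 reads in libraries labelled knockout, against 10, 0 and 0 reads in wild-type libraries. Pax5, the B cell identity factor, had 1, 5 and 0 reads in libraries labelled knockout, against 3, 0 and 0 reads in wild-type libraries. Fcmr, a receptor for IgM, was the only one of the 20 whose groups did not overlap, beside 9.43% of all genes lower without overlap. It had 3, 5 and 5 reads in libraries labelled knockout, against 17, 9 and 8 reads in wild-type libraries (log2 fold change -1.07, SE 0.53, limma adjusted p = 0.541).

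Of 15 plasma cell genes, 14 were tested, 5 below and 9 above 0, with a median log2 fold change of 0.17. Limma called 0, and 1 lower and 2 higher genes had an unadjusted p under 0.05, beside 6.14% and 3.94% of all genes. DESeq2 called 1 gene, beside 1.95% of all genes. Tnfrsf17 (BCMA), the plasma cell survival receptor, had 0 reads in 5 libraries and 3 in wild-type library 3. Xbp1, the secretory cell transcription factor that kidney epithelium also expresses, had 6550 ± 470 normalized counts in libraries labelled knockout and 4472 ± 770 in wild-type libraries (SD, n = 3 each), with a limma adjusted p of 0.399. Ckap4, a protein of the endoplasmic reticulum sheet, had 577 ± 105 in libraries labelled knockout and 1044 ± 188 in wild-type libraries, with an adjusted p of 0.373 by limma and 0.0379 by DESeq2. Slamf7, a receptor of plasma and natural killer cells, had 24, 12 and 15 reads in libraries labelled knockout, against 12, 1 and 5 reads in wild-type libraries (limma adjusted p = 0.470).

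Of 12 receptors that bind or carry antibody, 11 were listed and 10 tested by limma. Limma called 0, and 0 had an unadjusted limma p under 0.05. DESeq2 gave 9 an adjusted p and called 0. Of the 10, 9 had a log2 fold change above 0 and 1 below, and the median was 0.33. Pigr, the epithelial carrier of polymeric IgA and IgM, had 1635, 1137 and 957 normalized counts in libraries labelled knockout, against 868, 764 and 1008 in wild-type libraries (log2 fold change 0.47, SE 0.22, limma adjusted p = 0.518). Trim21, a cytosolic antibody receptor, had 136, 185 and 554 in libraries labelled knockout, against 91.1, 125 and 130 in wild-type libraries (limma adjusted p = 0.510). Its groups did not overlap, beside 8.27% of all genes higher without overlap, and labelled-knockout library 3 was the highest. Fcamr, a receptor for IgA and IgM, had 136 ± 68.7 in libraries labelled knockout and 65.0 ± 24.4 in wild-type libraries (SD, n = 3 each, limma adjusted p = 0.510).

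Of 10 tested genes for B cell survival and homing, 5 were below and 5 above 0, with a median log2 fold change of -0.09. Limma called 0, with 1 lower at an unadjusted limma p under 0.05, beside 6.14% of all genes. DESeq2 gave 8 an adjusted p and called 0. Tnfsf13b (BAFF) is the main survival factor of B cells. It had 40.1, 25.2 and 22.6 normalized counts in libraries labelled knockout, against 72.7, 87.0 and 43.2 in wild-type libraries (log2 fold change -1.17, SE 0.42, limma adjusted p = 0.433). Its groups did not overlap, beside 9.43% of all genes lower without overlap. Cxcl12, a chemokine that retains plasma cells in bone marrow, had 878 ± 585 in libraries labelled knockout and 1737 ± 432 in wild-type libraries (SD, n = 3 each, limma adjusted p = 0.520). Cxcl13, the B cell follicle chemokine, had 364, 2 and 31 reads in libraries labelled knockout, against 12, 2 and 0 reads in wild-type libraries, so that labelled-knockout library 1 carried it. Markers of lymph node and spleen stroma, a list that holds Cxcl13, summed to 37.8 to 458 normalized counts in libraries labelled knockout and 13.7 to 46.8 in wild-type libraries. Of 8 genes of recombination, switching and the surrogate light chain, 6 were listed and 2 tested by limma, with 0 called. DESeq2 gave 1 an adjusted p and called 0. Of the 2, 1 was lower at an unadjusted limma p under 0.05, beside 6.14% of all genes. Ung, the uracil glycosylase of class switching and DNA repair, had 118, 193 and 189 in libraries labelled knockout, against 201, 287 and 299 in wild-type libraries (log2 fold change -0.66, SE 0.29, limma adjusted p = 0.488).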

How the data were processed

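RNA from 6 injured mouse kidneys was analysed, 3 labelled CXCR2 knockout and 3 WT, grouped by genotype and title in the labels. The authors' deposited unit is a signal, in which each read count has been scaled by a size factor of its library (from the form of the values). Every value was a whole multiple of the library's step within 0.001 reads, so whole reads were recovered. Per the submitters' processing notes the build was mm10. The aligner, the counting, its use of strand and its treatment of reads with several matches are not stated in labels or headers, and they decide how reads of near-identical V genes are shared out. Names and coordinates are those of the deposited table. All 48 genes were found in GENCODE M21, 47 of them with identical coordinates.

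The test was limma 3.58.1 (trend, robust) on log2(normalized count + 1), for genes with a mean of at least 1, with Benjamini-Hochberg adjustment over 21721 genes and a threshold of 0.05. Fold changes on this scale are differences of mean logs and can be smaller or larger than a ratio of means (for Igha -2.69, against -1.94 by DESeq2). On the recovered reads edgeR 4.0.16 and DESeq2 1.42.0 were run in R 4.3.3. On simulated data with known changes limma recovered 22% of genes changed 2-fold and 86% changed 4-fold. The genes changed there had starting levels above every immunoglobulin and partner gene (highest mean 40.1 normalized counts, Ighm). These rates therefore do not cover the members. Shares carry Wilson and reads exact Poisson 95% intervals. Nearest copies came from blastn 2.17.0. The named genes were all constant and partner genes, the leading V genes overall and in each library, and up to 4 genes of each other list with the smallest p. Ighv14-1, Spata24 and Gm32220 were added as near copies or neighbours, and defining markers (Ms4a1, Pax5, Tnfrsf17) for their role. Members, lists and tests were chosen with earlier results of these data known. A search of V gene promoters was planned but not run, since the promoter table used matched 0 V genes. The labels name no batch.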

Additional observations from a re-analysis of the deposited data

How the results depend on the processing

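The count of immunoglobulin and partner genes called was 0 in each of the 14 alternatives run, of which edgeR, DESeq2 and a minimum mean of 10 gave an adjusted p for 5 of the 20 genes only. Some members also fell below the minimum mean when a library was left out. Over all genes the count called was 1, and it was 4 with TMM scaling, 5 with a pseudocount of 5, 5 without a filter, 316 by DESeq2 and 1 to 6 when each library was left out. The replicate block gave 16 calls. Libraries with the same number did not deviate together (correlations of 0.02, -0.08 and 0.09), so the numbers were not taken to pair them, and not every library correlated best with its own number. The log2 fold change kept its sign under every alternative that gave a value for 12 genes, among them Igha (-3.82 to -1.31, adjusted p 0.237 to 0.945), Jchain (-2.29 to -1.03, adjusted p 0.369 to 0.945) and Ighm (0.38 to 1.66, adjusted p 0.545 to 0.945). It changed sign for 8 genes, and the cause was not tested. By DESeq2 it was -0.15 for Ighd, -0.30 for Ighg2c, 0.14 for Igkv10-96, 0.56 for Igkv6-32, 0.13 for Iglc3 and 0.39 for Mzb1. By edgeR it was 0.39 for Mzb1. With a pseudocount of 5 it was 0.055 for Igkv6-32 and 0.00053 for Mzb1. Leaving out each library gave -0.046 to 0.99 for Cd79b, -0.48 to 1.36 for Ighd, -0.61 to 1.50 for Ighg2c, -0.14 to 0.54 for Ighv5-17, -0.51 to 0.046 for Igkv10-96, -0.42 to 0.35 for Igkv6-32, -0.70 to 0.17 for Iglc3 and -0.82 to 0.65 for Mzb1. The log2 ratio of summed segment counts ran from -1.17 (without Ighm) to -0.22 (without wild-type library 1). With at least 3 reads required, V genes found were 2, 3 and 1 in libraries labelled knockout, against 8, 1 and 2 in wild-type libraries. Depth limits most V, IgG and lambda genes, for which a difference of a few reads was not detectable.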
